A study of Mus musculus with 18 samples.

Results

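The genes described here are 38 genes that macrophages express, listed by name: the 3 chains of complement C1q, surface markers, growth factor and chemokine receptors, Fc receptors with their adaptors, lysosomal enzymes, scavenger receptors, receptors for dying cells, and genes of lipid, iron and haem handling. Each was read by the probe set of its symbol with the highest mean over the 18 arrays. All 38 were measured, among 18194 genes with a probe set of a single symbol. Of these, 36 passed a filter on low signals and were among the 14020 genes tested, while Cd163 and Vsig4 did not pass. Without the lymphoma arrays 26 of the 38 would have passed the same filter, and Cd68, Aif1, Cx3cr1, Fcgr3, Clec7a, Mertk, Axl, Slc11a1, Lpl and Gpnmb passed through the lymphoma arrays, so counts over all 38 without the filter are given beside those over the 36.

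The study compared thymus of mice with a stabilised form of beta-catenin, the transcriptional partner that carries Wnt signals to the nucleus, before and after T cells had turned into lymphoma. RNA was measured on Affymetrix mouse arrays, 1 array for each of 18 samples, and each sample was taken as 1 mouse. The control group holds 5 mice, which the series describes as LckCre and the sample labels as wild type, and which of these applies to them was not resolved. The second group holds 5 CD4Cre-ctnnbex3 mice before T cell transformation, in which Cre, driven by regulatory sequence of the T cell gene Cd4, acts on a beta-catenin gene whose exon 3 can be removed. The third group holds 8 CD4Cre-ctnnbex3 mice with lymphoma. Strain, age and sex are not given in the labels, and the 3 groups carry no other named allele or agent. The RNA came from thymocytes or from tumour masses with no sort, so the form of the sample goes with the group and their effects cannot be told apart. In such bulk RNA, fewer cells of a type and less RNA per cell cannot be told apart either.

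Macrophages of the thymus engulf the many thymocytes that die during selection. They recognise lipids exposed on dying cells through receptors such as Mertk, Axl and Timd4, use C1q as a bridge to them, and digest what they take up with lysosomal cathepsins. Their identity depends on the transcription factor PU.1, encoded by Spi1, and on signals of the CSF1 receptor.

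Signals are given as log2 of the deposited intensity, floored at 5.74. Array medians ran from 125 to 166 in linear intensity. By the X-linked Xist and the Y-linked Eif2s3y, the arrays of 2 controls (numbers 1 and 2) and 6 lymphomas read as female, those of controls 3 to 5, the 5 mice before transformation and lymphoma 3 as male, and lymphoma 4 as both. T cell markers, which check the labelled tissue, were read in all 3 groups: the summed linear signal of 9 T cell genes was 44202 to 50069 in controls, 38113 to 57263 before transformation and 17577 to 30147 in lymphomas. Differences below are in log2 units with their standard error, and a gene is said to have risen or fallen where limma's adjusted p, taken over all 14020 genes, was under 0.05. A fold is the difference raised from that log2 scale.

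More macrophage genes rose than fell in lymphomas, and before transformation the share of members called was near that of all genes. Before transformation against control, 2 of the 36 tested members rose, Ctsb and Ccr2, and 1 fell, Ctsd, while 10.5% of all genes tested were called, 4.36% upwards and 6.18% downwards. The median difference was 0.03 log2 units over the members and -0.02 over all genes tested. In lymphomas against mice before transformation 20 members rose and 3 fell, where 34.4% of all genes were called, 16.0% upwards and 18.3% downwards. The median difference over the members was 0.85 log2 units and that over all genes -0.03. In lymphomas against controls 25 members rose and 3 fell, where 40.1% of all genes were called, 17.4% upwards and 22.7% downwards, and the median difference was 0.98 log2 units against -0.03. The 2 lymphoma comparisons share the lymphoma mice and are given side by side.

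Counted over all 38 members with no filter, 18 rose and 3 fell in lymphomas against mice before transformation, with 12.3% of 18194 genes called upwards, and 22 rose and 3 fell against controls, with 13.8% called upwards. The rises not called with no filter were Clec7a and Lpl against mice before transformation (adjusted p = 0.0699 and 0.0611). Against controls they were Aif1, Mertk and Mpeg1 (adjusted p = 0.0678, 0.0604 and 0.0514). The rise of Ccr2 before transformation was not called with no filter either (adjusted p = 0.0864). The lymphoma values lay wholly above those before transformation for 12 tested members, as for 6.67% of all genes tested, and wholly above the controls for 15, as for 8.21%. Of these, 3 of the 12 (Cd68, Fcgr3 and Gpnmb) and 5 of the 15 (the same 3 with Clec7a and Slc11a1) had passed the filter through the lymphoma arrays. Over all 38 members with no filter the counts were again 12 and 15, as for 5.44% and 6.58% of 18194 genes. No member lay wholly below in either of these comparisons. Quantile normalization of the arrays moved the median difference of all genes between lymphomas and controls from -0.03 to 0.08 log2 units. Under it 26 members rose and 3 fell, and of all 14020 genes 3588 rose and 2555 fell, from 2434 and 3184 without it.

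**Figure D1:**
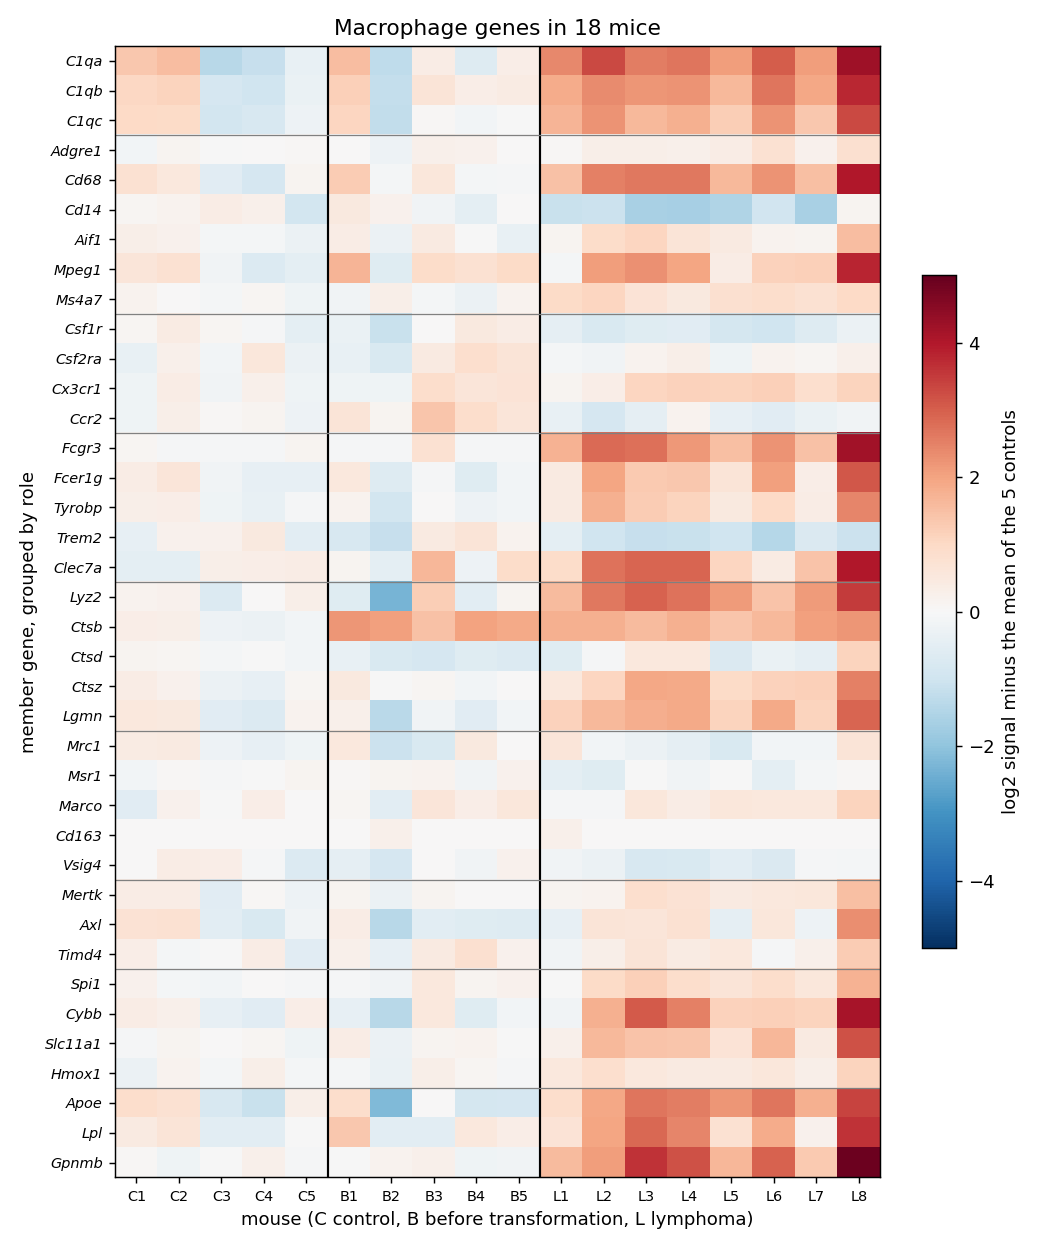
Log2 signal of each member in each of the 18 mice minus the mean of the 5 controls, with genes grouped by role in rows and mice in columns (C control, B before transformation, L lymphoma). The lymphoma columns are mostly above the controls for the C1q chains, Lyz2, Cd68, Apoe and Gpnmb, lymphoma 8 is the highest lymphoma in 31 of 36 tested members, and Ctsb is raised before transformation too.

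C1q is the recognition molecule of the classical complement pathway, built from the products of C1qa, C1qb and C1qc, and tissue macrophages are its main source. Mean log2 levels of C1qa were 7.36 ± 1.37 (SD, n = 5) in controls, 7.41 ± 1.07 (SD, n = 5) before transformation and 10.15 ± 0.72 (SD, n = 8) in lymphomas. By mouse, log2 levels of C1qa were 8.72, 8.89, 5.98, 6.22 and 6.97 in controls 1 to 5, 8.88, 6.08, 7.72, 6.70 and 7.68 in mice 1 to 5 before transformation, and 9.45 to 11.60 (median 9.97) in the 8 lymphomas. Every lymphoma lay above every other mouse, and controls 1 and 2 and mouse 1 before transformation lay above the rest of their groups. C1qa rose by 2.74 ± 0.43 log2 units (6.67-fold, adjusted p = 0.000276) against mice before transformation and rose by 2.79 ± 0.50 log2 units (6.93-fold, adjusted p = 0.000473) against controls, and its difference before transformation was 0.05 ± 0.65 (95% interval -1.37 to 1.48, adjusted p = 0.982). Log2 levels of C1qb were 8.76, 8.84, 6.89, 6.71 and 7.38 in controls 1 to 5, 8.90, 6.52, 8.36, 8.03 and 8.11 in mice 1 to 5 before transformation, and 9.33 to 11.47 (median 9.95) in the 8 lymphomas. C1qb rose by 2.07 ± 0.38 log2 units (4.2-fold, adjusted p = 0.000825) against mice before transformation and rose by 2.34 ± 0.40 log2 units (5.06-fold, adjusted p = 0.000366) against controls. Its other 2 probe sets differed by 2.19 and 2.48 log2 units in the first of these comparisons. The third chain split the controls the same way, with controls 1 and 2 above controls 3 to 5. Log2 levels of C1qc were 9.15, 9.11, 7.22, 7.36 and 7.88 in controls 1 to 5, 9.21, 6.91, 8.22, 8.01 and 8.11 in mice 1 to 5 before transformation, and 9.39 to 11.44 (median 9.90) in the 8 lymphomas. C1qc rose by 1.99 ± 0.36 log2 units (3.97-fold, adjusted p = 0.000835) against mice before transformation and rose by 1.94 ± 0.38 log2 units (3.82-fold, adjusted p = 0.00107) against controls.

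The spread of the C1q genes within the control group was split along the female and male signals named above. Controls 1 and 2, with female signals, read 8.72 and 8.89 for C1qa, and the 3 male controls read 5.98 to 6.97, while mouse 1 before transformation, male by the same signals, read 8.88. Lymphoma 3, the tumour with male signals alone, read 9.91 for C1qa, above all 10 mice without lymphoma. With mice numbered 1 and 2 alone, C1qa differed by 1.38 log2 units between lymphomas and controls (adjusted p = 0.0283), and with mice numbered 3 and up by 3.75 (adjusted p = 0.000213). Against mice before transformation the same sets gave 2.71 (adjusted p = 0.0924) and 2.77 (adjusted p = 0.00128). The parts of sex and of mouse number in these differences were not tested, and the mice before transformation were all male by the Xist and Eif2s3y signals.

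Upstream sequences are shown for 4 members that had the smallest adjusted p among those with an entry in the RefSeq promoter table, and for C1qb and C1qc, neighbours on chromosome 4 chosen after their values were seen. Each is the 250 bases before the start, read 5′ to 3′ along the gene in the build GRCm38.p6. Capitals mark GAGGAA or its reverse complement TTCCTC, 1 form of the site that PU.1 binds. Other forms of the site were not searched. The stretches are chr4:136886201-136886450, minus strand for C1qb, chr4:136892915-136893164, minus strand for C1qc, chr1:171059404-171059653, minus strand for Fcgr3, chr10:117282273-117282522, minus strand for Lyz2, chr12:102439729-102439978, minus strand for Lgmn and chr19:11336147-11336396, minus strand for Ms4a7.
C1qb: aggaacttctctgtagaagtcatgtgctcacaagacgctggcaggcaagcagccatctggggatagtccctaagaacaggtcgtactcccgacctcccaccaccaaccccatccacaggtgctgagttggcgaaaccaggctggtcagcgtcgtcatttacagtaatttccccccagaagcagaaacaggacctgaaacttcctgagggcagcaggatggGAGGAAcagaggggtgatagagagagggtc
C1qc: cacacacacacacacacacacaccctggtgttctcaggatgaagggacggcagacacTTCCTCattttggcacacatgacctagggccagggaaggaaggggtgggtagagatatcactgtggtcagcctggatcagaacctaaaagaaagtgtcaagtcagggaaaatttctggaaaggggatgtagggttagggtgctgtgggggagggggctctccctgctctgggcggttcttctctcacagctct
Fcgr3: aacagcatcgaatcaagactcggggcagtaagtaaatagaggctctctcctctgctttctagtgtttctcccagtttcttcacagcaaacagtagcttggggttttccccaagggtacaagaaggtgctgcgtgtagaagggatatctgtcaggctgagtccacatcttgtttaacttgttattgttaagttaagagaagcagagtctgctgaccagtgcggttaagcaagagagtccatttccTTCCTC
Lyz2: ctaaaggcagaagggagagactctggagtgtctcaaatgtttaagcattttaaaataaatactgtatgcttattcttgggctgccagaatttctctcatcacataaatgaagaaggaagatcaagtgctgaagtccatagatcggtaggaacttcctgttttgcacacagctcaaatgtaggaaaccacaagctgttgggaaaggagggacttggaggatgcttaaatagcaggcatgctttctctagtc
Lgmn: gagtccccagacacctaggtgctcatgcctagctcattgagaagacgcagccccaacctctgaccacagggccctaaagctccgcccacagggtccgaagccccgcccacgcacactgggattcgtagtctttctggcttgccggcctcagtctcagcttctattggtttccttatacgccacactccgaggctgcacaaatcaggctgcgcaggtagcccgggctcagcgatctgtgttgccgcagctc
Ms4a7: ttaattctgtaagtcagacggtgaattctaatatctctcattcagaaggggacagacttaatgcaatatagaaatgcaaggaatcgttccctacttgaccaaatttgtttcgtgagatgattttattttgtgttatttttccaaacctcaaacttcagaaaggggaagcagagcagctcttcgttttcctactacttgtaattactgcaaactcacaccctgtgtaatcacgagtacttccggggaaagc
The C1qb, C1qc and Fcgr3 stretches each hold 1 match, that of Fcgr3 in the last 6 bases before the start. Those of Lyz2, Lgmn and Ms4a7 hold no copy of these exact bases. Of the 38 members 28 had an entry, and 14 of these (50%) held the motif in at least 1 of their stretches, as did 25.9% of 27025 genes. By stretch, 17 of 34 of the members' (50%) and 23.3% of all 32851 held it. A match describes these letters only, and the members' share was not tested.

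Among surface and myeloid markers Cd68, a lysosome membrane glycoprotein, moved in the same direction as C1q. Log2 levels of Cd68 were 7.37, 7.13, 6.03, 5.74 and 6.72 in controls 1 to 5, 7.87, 6.51, 7.18, 6.49 and 6.53 in mice 1 to 5 before transformation, and 8.05 to 10.59 (median 8.98) in the 8 lymphomas. All 8 lymphomas lay above the other mice. Cd68 rose by 2.01 ± 0.38 log2 units (4.02-fold, adjusted p = 0.00118) against mice before transformation and rose by 2.33 ± 0.39 log2 units (5.02-fold, adjusted p = 0.000319) against controls. Ms4a7, a membrane protein with 4 passes through the membrane, moved less, with an SD of 0.19 log2 units among lymphomas. Log2 levels of Ms4a7 were 7.87, 7.73, 7.61, 7.80 and 7.49 in controls 1 to 5, 7.53, 8.00, 7.61, 7.39 and 7.87 in mice 1 to 5 before transformation, and 8.20 to 8.78 (median 8.54) in the 8 lymphomas. No lymphoma overlapped another group, and Ms4a7 rose by 0.85 ± 0.13 log2 units (1.81-fold, adjusted p = 0.000229) against mice before transformation and rose by 0.83 ± 0.11 log2 units (1.78-fold, adjusted p = 5.27e-05) against controls. Its second probe set read 5.74 to 5.98 in controls, 5.74 to 6.42 before transformation and 6.15 to 8.20 in lymphomas. On that set the lymphomas overlapped the mice before transformation.

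Adgre1 encodes F4/80, the antigen most used to mark mouse macrophages. Log2 levels of Adgre1 were 8.08, 8.36, 8.22, 8.24 and 8.28 in controls 1 to 5, 8.24, 7.97, 8.48, 8.45 and 8.24 in mice 1 to 5 before transformation, and 8.29 to 9.03 (median 8.54) in the 8 lymphomas. The groups overlapped. Adgre1 rose by 0.38 ± 0.13 log2 units (1.3-fold, adjusted p = 0.0309) against controls, and against mice before transformation its difference was 0.34 ± 0.14 (95% interval 0.03 to 0.64, adjusted p = 0.0803). Aif1, an actin-binding protein of macrophages, had log2 levels of 7.03, 6.96, 6.62, 6.63 and 6.44 in controls 1 to 5, 7.09, 6.43, 7.17, 6.71 and 6.35 in mice 1 to 5 before transformation, and 6.86 to 8.29 (median 7.28) in the 8 lymphomas. It overlapped between groups, rose by 0.63 ± 0.23 log2 units (1.55-fold, adjusted p = 0.0421) against controls and differed by 0.62 ± 0.25 (95% interval 0.09 to 1.15, adjusted p = 0.0658) from mice before transformation. Mpeg1, a pore-forming protein of phagocytes, had log2 levels of 8.22, 8.37, 7.42, 6.93 and 7.13 in controls 1 to 5, 9.30, 7.01, 8.55, 8.36 and 8.59 in mice 1 to 5 before transformation, and 7.51 to 11.43 (median 9.19) in the 8 lymphomas. Mice 1, 3, 4 and 5 before transformation read above 4 or all of the 5 controls, and lymphomas spread across both groups. Mpeg1 rose by 1.60 ± 0.52 log2 units (3.03-fold, adjusted p = 0.024) against controls and differed by 0.85 ± 0.55 (95% interval -0.31 to 2.01, adjusted p = 0.246) from mice before transformation. Cd14, the co-receptor for bacterial lipopolysaccharide, went the other way. Log2 levels of Cd14 were 8.34, 8.41, 8.59, 8.48 and 7.31 in controls 1 to 5, 8.73, 8.46, 8.06, 7.73 and 8.26 in mice 1 to 5 before transformation, and 6.55 to 8.38 (median 6.93) in the 8 lymphomas, and 7 of the 8 lymphomas lay below all other mice, lymphoma 8 being the one that did not. Cd14 fell by 1.19 ± 0.28 log2 units (2.29-fold, adjusted p = 0.00416) against mice before transformation and fell by 1.17 ± 0.29 log2 units (2.25-fold, adjusted p = 0.00538) against controls.

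**Figure D2:**
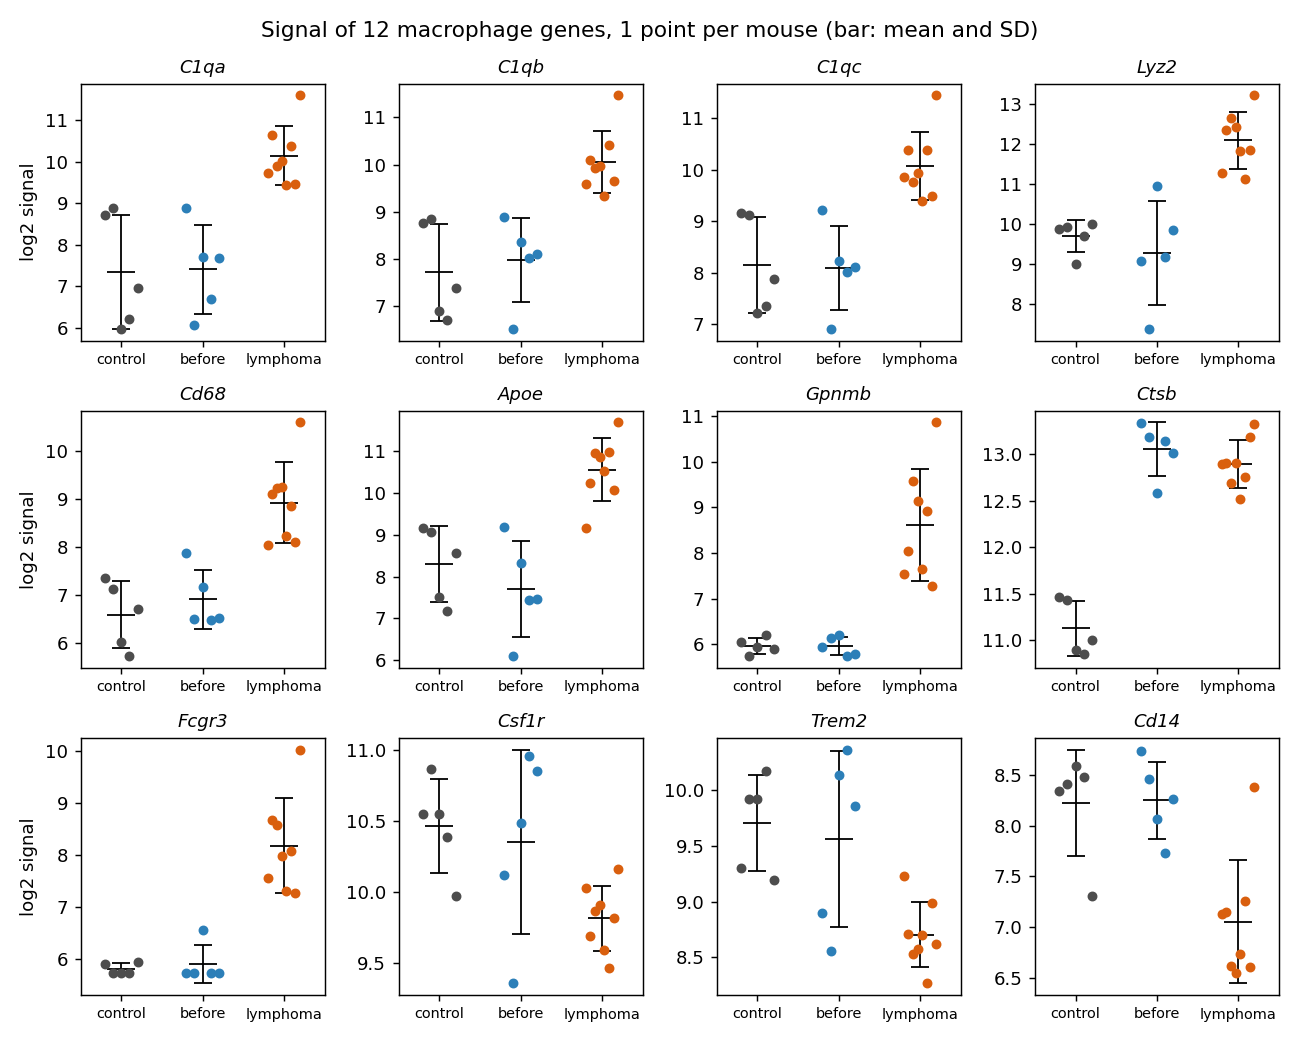
Log2 signal of 12 members, 1 point for each mouse, by group, with the mean and SD of each group as bars. C1qa, C1qb, C1qc, Lyz2, Cd68, Gpnmb and Fcgr3 have all lymphomas above the other mice, Ctsb is high in both transgenic groups, and Csf1r, Trem2 and Cd14 have lower means in lymphomas.

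The receptors for growth factors and chemokines did not move as the markers did, with no member rising in lymphomas against mice before transformation. Csf1r encodes the receptor for CSF1, on which most tissue macrophages depend. Log2 levels of Csf1r were 10.55, 10.87, 10.55, 10.39 and 9.97 in controls 1 to 5, 10.12, 9.36, 10.49, 10.96 and 10.85 in mice 1 to 5 before transformation, and 9.47 to 10.16 (median 9.84) in the 8 lymphomas. All lymphomas lay below the medians of both other groups and overlapped their ranges. Csf1r fell by 0.65 ± 0.15 log2 units (1.57-fold, adjusted p = 0.00281) against controls and differed by -0.54 ± 0.22 (95% interval -1.02 to -0.06, adjusted p = 0.0741) from mice before transformation. Csf1r was called as lower in the latter comparison within mice 3 and up (-0.97 log2 units, adjusted p = 0.00153), with the sets of mice 1 and 2 and of mice 3 and up as a block (-0.60, adjusted p = 0.0284) and without mouse 2 before transformation (-0.79, adjusted p = 0.00287). The second Csf1r probe set differed by -0.04 log2 units between lymphomas and controls (adjusted p = 0.86), and the third, which was not tested, by 0.23. The fall against controls thus rests on the first set, and all 3 differences lay below those of the C1q chains. Ccr2 encodes the receptor that draws monocytes out of the blood towards CCL2. Log2 levels of Ccr2 were 8.63, 9.14, 8.92, 8.97 and 8.58 in controls 1 to 5, 9.49, 8.99, 10.25, 9.72 and 9.46 in mice 1 to 5 before transformation, and 8.01 to 9.03 (median 8.45) in the 8 lymphomas. Ccr2 rose by 0.73 ± 0.20 log2 units (1.66-fold, adjusted p = 0.0393) before transformation and fell by 1.11 ± 0.19 log2 units (2.16-fold, adjusted p = 0.000634) in lymphomas against those mice. Lymphomas differed from controls by -0.37 ± 0.15 (95% interval -0.70 to -0.05, adjusted p = 0.0654). A second Ccr2 probe set, with log2 levels of 6.77 to 7.03 in controls, 8.37 to 10.34 before transformation and 5.74 to 8.74 in lymphomas, differed by 2.32 log2 units before transformation (adjusted p = 0.000225), with no overlap, and by -2.05 and 0.27 in lymphomas against mice before transformation and against controls. The other 2 Ccr2 sets differed by 1.12 and 0.11 log2 units before transformation, by -0.68 and 0.09 in lymphomas against those mice and by 0.45 and 0.21 against controls, so the direction against controls was not that of the first set. The rise on the first set was 0.35 log2 units within mice 1 and 2 (adjusted p = 0.471). It was not called when control 1, 3, 4 or 5 or mouse 1, 3, 4 or 5 before transformation was left out, with adjusted p of 0.0542 to 0.1. Cx3cr1, the receptor for fractalkine, had log2 levels of 5.74, 6.31, 5.78, 6.21 and 5.74 in controls 1 to 5, 5.74, 5.74, 6.83, 6.57 and 6.64 in mice 1 to 5 before transformation, and 6.10 to 7.16 (median 7.04) in the 8 lymphomas, with 2 controls and 2 mice before transformation at the floor, and rose by 0.87 ± 0.20 log2 units (1.82-fold, adjusted p = 0.00368) against controls. Against mice before transformation Cx3cr1 differed by 0.52 ± 0.24 (95% interval 0.00 to 1.03, adjusted p = 0.112), and it was called as higher there after quantile normalization (0.64 log2 units, adjusted p = 0.02), with arrays centred on their median (0.60, adjusted p = 0.0276), with the 2 sets of mice as a block (0.38, adjusted p = 0.00687), within mice 3 and up (0.35, adjusted p = 0.0368) and without lymphoma 1 (0.62, adjusted p = 0.0431). Csf2ra, a chain of the GM-CSF receptor, passed in no comparison on its brighter probe set, while its second set was higher in lymphomas by 0.88 log2 units against mice before transformation (adjusted p = 0.0385) and 0.80 against controls (adjusted p = 0.042).

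Fc receptors bind antibody, and several signal through the adaptors encoded by Fcer1g and Tyrobp. Log2 levels of Fcgr3, a low-affinity receptor for IgG, were 5.91, 5.74, 5.74, 5.74 and 5.94 in controls 1 to 5, 5.74, 5.74, 6.56, 5.74 and 5.74 in mice 1 to 5 before transformation, and 7.27 to 10.02 (median 8.03) in the 8 lymphomas. It was at the floor in 3 controls and 4 mice before transformation, and all lymphomas were above them, so its folds are lower bounds. Fcgr3 rose by 2.27 ± 0.38 log2 units (at least 4.84-fold, adjusted p = 0.000453) against mice before transformation and rose by 2.37 ± 0.37 log2 units (at least 5.15-fold, adjusted p = 0.00015) against controls. Log2 levels of Fcer1g were 7.91, 8.13, 7.38, 7.13 and 7.14 in controls 1 to 5, 8.08, 6.89, 7.46, 6.93 and 7.40 in mice 1 to 5 before transformation, and 7.88 to 10.66 (median 8.86) in the 8 lymphomas. Fcer1g rose by 1.60 ± 0.41 log2 units (3.02-fold, adjusted p = 0.00771) against mice before transformation and rose by 1.41 ± 0.40 log2 units (2.65-fold, adjusted p = 0.0119) against controls, with some overlap. Tyrobp, also known as DAP12, had log2 levels of 8.59, 8.66, 8.11, 7.95 and 8.25 in controls 1 to 5, 8.50, 7.40, 8.33, 8.07 and 8.18 in mice 1 to 5 before transformation, and 8.67 to 10.74 (median 9.35) in the 8 lymphomas. All lymphomas lay above the other mice, and Tyrobp rose by 1.31 ± 0.32 log2 units (2.49-fold, adjusted p = 0.0055) and rose by 1.10 ± 0.30 log2 units (2.14-fold, adjusted p = 0.00971) in the 2 comparisons.

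Clec7a encodes dectin-1, which binds fungal beta-glucan. Log2 levels of Clec7a were 5.74, 5.74, 6.51, 6.56 and 6.60 in controls 1 to 5, 6.36, 5.74, 7.89, 5.97 and 7.16 in mice 1 to 5 before transformation, and 6.63 to 10.25 (median 8.31) in the 8 lymphomas. Clec7a rose by 1.66 ± 0.57 log2 units (3.15-fold, adjusted p = 0.0345) against mice before transformation, with overlap, and rose by 2.05 ± 0.52 log2 units (4.15-fold, adjusted p = 0.0056) against controls, with none. Trem2, a lipid receptor that signals through the Tyrobp product, fell where its adaptor rose. Log2 levels of Trem2 were 9.30, 9.92, 9.92, 10.17 and 9.19 in controls 1 to 5, 8.90, 8.56, 10.13, 10.36 and 9.86 in mice 1 to 5 before transformation, and 8.27 to 9.23 (median 8.66) in the 8 lymphomas. Trem2 fell by 0.86 ± 0.27 log2 units (1.81-fold, adjusted p = 0.0237) against mice before transformation and fell by 1.0 ± 0.19 log2 units (2-fold, adjusted p = 0.000659) against controls, with overlap in both. Its second probe set was at the floor in 16 of 18 mice and read 6.41 and 6.70 in lymphomas 6 and 8, so the 2 sets do not show the same pattern and the direction for Trem2 rests on the first.

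The lysosomal enzymes split into those that rose with tumour and 2 that had moved already before it. Lyz2 encodes lysozyme M, which cuts bacterial cell walls. Mean log2 levels of Lyz2 were 9.70 ± 0.40 (SD, n = 5) in controls, 9.29 ± 1.30 (SD, n = 5) before transformation and 12.09 ± 0.70 (SD, n = 8) in lymphomas. By mouse, log2 levels of Lyz2 were 9.87, 9.93, 9.01, 9.71 and 10.00 in controls 1 to 5, 9.08, 7.39, 10.94, 9.18 and 9.85 in mice 1 to 5 before transformation, and 11.13 to 13.21 (median 12.10) in the 8 lymphomas. All lymphomas lay above all other mice. Lyz2 rose by 2.80 ± 0.48 log2 units (6.98-fold, adjusted p = 0.000497) against mice before transformation and rose by 2.39 ± 0.30 log2 units (5.23-fold, adjusted p = 2.82e-05) against controls. Lgmn, the asparaginyl endopeptidase legumain, had log2 levels of 7.61, 7.57, 6.51, 6.40 and 7.26 in controls 1 to 5, 7.33, 5.74, 6.91, 6.51 and 6.92 in mice 1 to 5 before transformation, and 8.17 to 9.98 (median 8.79) in the 8 lymphomas. It rose by 2.08 ± 0.31 log2 units (4.22-fold, adjusted p = 0.000171) and rose by 1.69 ± 0.30 log2 units (3.23-fold, adjusted p = 0.000476) in the 2 comparisons, with no overlap. Ctsz, the carboxypeptidase cathepsin Z, had log2 levels of 9.80, 9.66, 9.15, 9.03 and 9.55 in controls 1 to 5, 9.94, 9.42, 9.54, 9.29 and 9.44 in mice 1 to 5 before transformation, and 9.98 to 11.94 (median 10.61) in the 8 lymphomas. It rose by 1.32 ± 0.27 log2 units (2.5-fold, adjusted p = 0.00186) and rose by 1.41 ± 0.28 log2 units (2.66-fold, adjusted p = 0.00095), again with no overlap.

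Ctsb encodes cathepsin B, a cysteine protease of lysosomes in many cell types. Log2 levels of Ctsb were 11.46, 11.43, 10.89, 10.85 and 11.00 in controls 1 to 5, 13.34, 13.19, 12.58, 13.14 and 13.01 in mice 1 to 5 before transformation, and 12.52 to 13.32 (median 12.89) in the 8 lymphomas. The 5 mice before transformation and the 8 lymphomas covered the same range, and all 13 lay above the 5 controls. Ctsb rose by 1.93 ± 0.16 log2 units (3.8-fold, adjusted p = 1.19e-05) before transformation and rose by 1.77 ± 0.14 log2 units (3.42-fold, adjusted p = 3.02e-07) in lymphomas against controls, and lymphomas differed from mice before transformation by -0.15 ± 0.14 (95% interval -0.45 to 0.15, adjusted p = 0.431). All 5 Ctsb probe sets were higher before transformation, by 1.33 to 2.66 log2 units. Ctsb was called before transformation within mice 1 and 2 (1.82 log2 units, adjusted p = 0.00119) and within mice 3 and up (2.00 log2 units, adjusted p = 0.00034). The aspartic protease gene Ctsd went the other way at that step. Log2 levels of Ctsd were 11.39, 11.33, 11.16, 11.24 and 11.11 in controls 1 to 5, 10.88, 10.50, 10.39, 10.65 and 10.56 in mice 1 to 5 before transformation, and 10.51 to 12.35 (median 11.06) in the 8 lymphomas. Ctsd fell by 0.65 ± 0.10 log2 units (1.57-fold, adjusted p = 0.000908) before transformation with no overlap, and lymphomas spread across both groups, with a difference from controls of 0.00 ± 0.26 (95% interval -0.56 to 0.56, adjusted p = 0.999). The fall of Ctsd before transformation was called within mice 3 and up (-0.64 log2 units, adjusted p = 0.00602), and was not called within mice 1 and 2 (-0.67, adjusted p = 0.0545) or with all 3 groups in 1 fit (-0.65, adjusted p = 0.194).

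**Figure D3:**
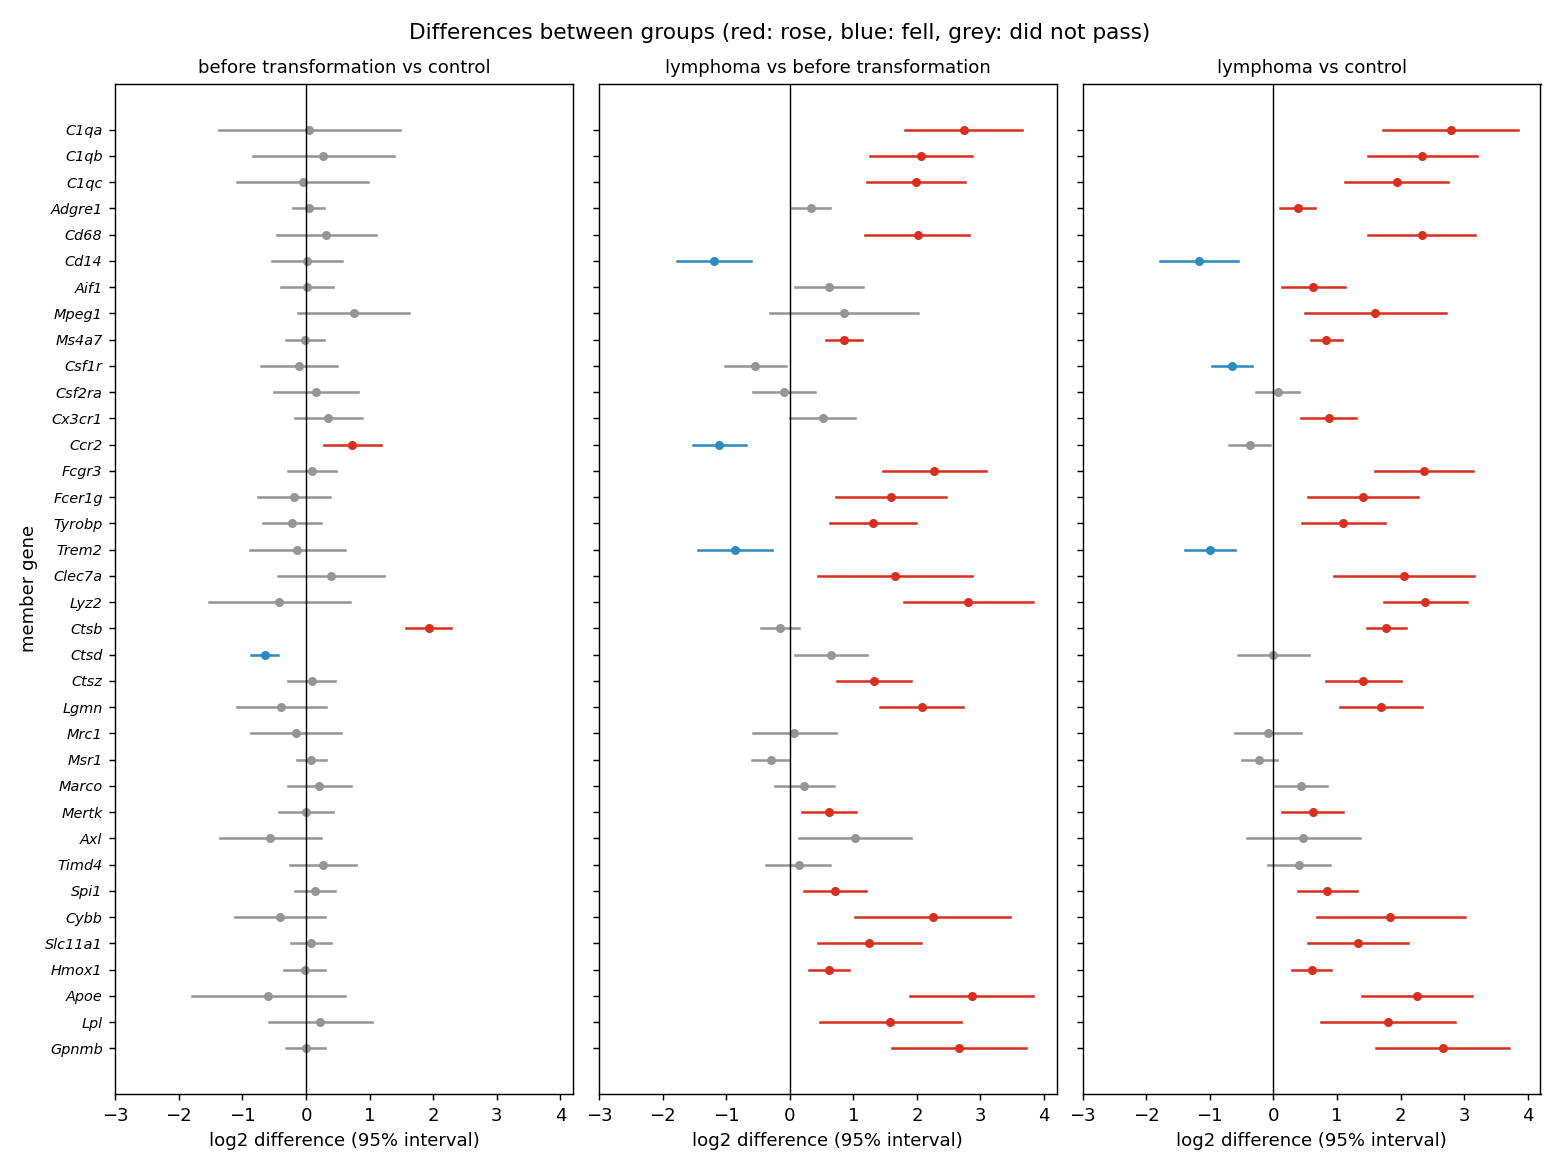
Log2 difference of each of the 36 tested members in the 3 comparisons, with its 95% interval. Red points rose, blue points fell and grey points did not pass. Before transformation only Ctsb, Ccr2 and Ctsd are coloured, while 23 members are coloured in lymphomas against mice before transformation and 28 in lymphomas against controls.

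Genes of transcription, oxidative burst, iron and haem handling all rose, 4 of 4 in both lymphoma comparisons. Log2 levels of Spi1, the gene of PU.1, were 7.37, 7.07, 7.02, 7.19 and 7.11 in controls 1 to 5, 7.11, 6.99, 7.69, 7.30 and 7.37 in mice 1 to 5 before transformation, and 7.13 to 8.88 (median 8.04) in the 8 lymphomas. Lymphomas overlapped both groups, and Spi1 rose by 0.71 ± 0.23 log2 units (1.64-fold, adjusted p = 0.0254) against mice before transformation and rose by 0.85 ± 0.22 log2 units (1.81-fold, adjusted p = 0.00575) against controls. Cybb encodes the catalytic subunit of the phagocyte NADPH oxidase. Log2 levels of Cybb were 7.52, 7.40, 6.72, 6.57 and 7.49 in controls 1 to 5, 6.72, 5.74, 7.67, 6.55 and 6.99 in mice 1 to 5 before transformation, and 6.96 to 11.27 (median 8.62) in the 8 lymphomas. Cybb rose by 2.25 ± 0.57 log2 units (4.76-fold, adjusted p = 0.00747) and rose by 1.84 ± 0.55 log2 units (3.59-fold, adjusted p = 0.0147), with overlap, and its other 2 probe sets differed by 2.01 and 2.02 log2 units in the first of these comparisons. Slc11a1, a metal transporter of the phagosome membrane, had log2 levels of 6.48, 6.67, 6.56, 6.62 and 6.31 in controls 1 to 5, 6.90, 6.24, 6.66, 6.72 and 6.51 in mice 1 to 5 before transformation, and 6.79 to 9.70 (median 7.93) in the 8 lymphomas. It rose by 1.25 ± 0.38 log2 units (2.38-fold, adjusted p = 0.0189) and rose by 1.33 ± 0.37 log2 units (2.51-fold, adjusted p = 0.0103), and lymphoma 8 lay well above the other 7. Hmox1, the haem oxygenase that breaks down haem from engulfed red cells, had log2 levels of 7.83, 8.29, 8.03, 8.42 and 8.02 in controls 1 to 5, 8.01, 7.79, 8.40, 8.21 and 8.06 in mice 1 to 5 before transformation, and 8.43 to 9.25 (median 8.65) in the 8 lymphomas. It rose by 0.62 ± 0.15 log2 units (1.54-fold, adjusted p = 0.00474) and rose by 0.60 ± 0.15 log2 units (1.52-fold, adjusted p = 0.00427), with no overlap.

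The 3 genes of lipid handling rose in both lymphoma comparisons. Apoe encodes the apolipoprotein that macrophages use to export cholesterol. Mean log2 levels of Apoe were 8.30 ± 0.91 (SD, n = 5) in controls, 7.70 ± 1.15 (SD, n = 5) before transformation and 10.56 ± 0.76 (SD, n = 8) in lymphomas. By mouse, log2 levels of Apoe were 9.17, 9.06, 7.51, 7.17 and 8.57 in controls 1 to 5, 9.19, 6.10, 8.33, 7.43 and 7.47 in mice 1 to 5 before transformation, and 9.17 to 11.69 (median 10.69) in the 8 lymphomas. The lowest lymphoma fell within both other groups. Apoe rose by 2.86 ± 0.46 log2 units (7.26-fold, adjusted p = 0.000313) against mice before transformation and rose by 2.26 ± 0.40 log2 units (4.8-fold, adjusted p = 0.000485) against controls. Within mice 1 and 2 Apoe differed by 0.58 log2 units between lymphomas and controls (adjusted p = 0.264) and within mice 3 and up by 3.10 (adjusted p = 0.000213). Gpnmb encodes a transmembrane glycoprotein of lipid-laden macrophages. Log2 levels of Gpnmb were 6.04, 5.74, 5.94, 6.20 and 5.90 in controls 1 to 5, 5.94, 6.13, 6.20, 5.74 and 5.79 in mice 1 to 5 before transformation, and 7.28 to 10.86 (median 8.48) in the 8 lymphomas. The 10 mice without lymphoma lay within 0.5 log2 units of the floor and every lymphoma above them. Gpnmb rose by 2.66 ± 0.49 log2 units (6.32-fold, adjusted p = 0.000933) and rose by 2.66 ± 0.49 log2 units (6.31-fold, adjusted p = 0.000599) in the 2 comparisons, while its second probe set was at the floor in 17 of 18 mice. Lpl, lipoprotein lipase, had log2 levels of 6.74, 6.92, 5.74, 5.74 and 6.26 in controls 1 to 5, 7.61, 5.74, 5.74, 6.80 and 6.61 in mice 1 to 5 before transformation, and 6.50 to 9.89 (median 8.20) in the 8 lymphomas. It rose by 1.58 ± 0.52 log2 units (2.99-fold, adjusted p = 0.0295) and rose by 1.80 ± 0.49 log2 units (3.48-fold, adjusted p = 0.00927), with overlap.

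Of the receptors for dying cells, 1 of 3 was called. Mertk, the kinase receptor that binds dying cells through Gas6 and protein S, had log2 levels of 6.81, 6.83, 5.87, 6.51 and 6.21 in controls 1 to 5, 6.59, 6.14, 6.59, 6.46 and 6.47 in mice 1 to 5 before transformation, and 6.58 to 7.94 (median 7.0) in the 8 lymphomas. The groups overlapped, and Mertk rose by 0.62 ± 0.20 log2 units (1.53-fold, adjusted p = 0.0272) and rose by 0.62 ± 0.23 log2 units (1.53-fold, adjusted p = 0.0409) in the 2 comparisons. Within mice 1 and 2 its difference between lymphomas and controls was -0.21 log2 units (adjusted p = 0.416). Its relative Axl differed by 1.03 ± 0.41 (95% interval 0.15 to 1.90, adjusted p = 0.0644) between lymphomas and mice before transformation, and Timd4, which binds phosphatidylserine, by 0.14 ± 0.24 (95% interval -0.37 to 0.64, adjusted p = 0.684).

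Scavenger and complement receptors passed in no comparison on the probe sets used. Mrc1, the mannose receptor, differed by -0.08 ± 0.24 (95% interval -0.60 to 0.43, adjusted p = 0.806) between lymphomas and controls, Msr1, a receptor for modified lipoproteins, by -0.22 ± 0.13 (95% interval -0.50 to 0.06, adjusted p = 0.19), and Marco, a collagen-like scavenger receptor, by 0.44 ± 0.20 (95% interval 0.02 to 0.85, adjusted p = 0.0875). For the latter 2 genes the dimmer probe sets gave another picture. The second Marco set was at the floor in all 10 mice without lymphoma and in lymphoma 1, and read 6.72 to 9.99 in the other 7 lymphomas, a difference of 1.73 log2 units from controls (adjusted p = 0.0139). The second Msr1 set differed by 0.67 log2 units between lymphomas and controls (adjusted p = 0.037), where the set used had -0.22. Cd163, the receptor for haemoglobin with haptoglobin, was at the floor in 16 of 18 mice. Log2 levels of Vsig4, a complement receptor of resident macrophages, ran from 5.90 to 6.97 in controls, 5.74 to 6.81 before transformation and 5.76 to 6.51 in lymphomas.

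Some mice stood high or low for many members. Lymphoma 8 was the highest lymphoma for 31 of the 36 tested members, and for 23 of the 25 that rose against controls. The median over members of its difference from the lymphoma mean was 1.11 log2 units, against -0.01 over all genes tested. Lymphomas 1, 5 and 7 all lay below the other 5 for 14 members. Mouse 2 before transformation was the lowest of its group for 24 members, with a median difference from its group mean of -0.63 log2 units, and mouse 1 of that group was the highest for 18. Controls 1 and 2 both lay above controls 3 to 5 for 18 members. With lymphoma 8 left out 22 members were called against mice before transformation and 25 against controls, where 31.1% and 36.9% of all genes were. With lymphoma 8 and mouse 2 before transformation both left out, 20 were called in the first of these comparisons, 16 upwards, where 31.8% of all genes were called, 13.7% upwards.

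Some calls rested on 1 mouse or another, and each kept its direction when they were left out in turn. Adgre1 against controls was not called without lymphoma 8 or without control 1, 3 or 4 (0.32 to 0.38 log2 units, adjusted p = 0.0509 to 0.08). Aif1 against controls was not called without lymphoma 2, 3, 4 or 8 or without control 2, 3, 4 or 5 (0.50 to 0.69 log2 units, adjusted p = 0.0522 to 0.102). Mpeg1 against controls was not called without control 3, 4 or 5 (1.43 to 1.55 log2 units, adjusted p = 0.0534 to 0.0656). These 3 had the largest adjusted p of the surface and myeloid markers against controls, 0.0309 for Adgre1, 0.0421 for Aif1 and 0.024 for Mpeg1. Mertk against controls was not called without lymphoma 3, 4, 6, 7 or 8 or without control 3, 4 or 5 (0.47 to 0.63 log2 units, adjusted p = 0.0502 to 0.126), nor against mice before transformation without mouse 2, 4 or 5 of that group (0.54 to 0.62 log2 units, adjusted p = 0.0528 to 0.0652). Clec7a against mice before transformation was not called without lymphoma 2, 3, 4 or 8 or without mouse 1, 2 or 4 of that group (1.38 to 1.59 log2 units, adjusted p = 0.0516 to 0.0905). Lpl was in the same position without lymphoma 3 or 4 or mouse 2, 3 or 5 (1.39 to 1.61 log2 units, adjusted p = 0.0514 to 0.0772). No other call of Clec7a or Lpl was lost this way. Spi1 against mice before transformation was not called without mouse 1, 2 or 4 of that group (0.64 to 0.72 log2 units, adjusted p = 0.0513 to 0.0602). Trem2 in the same comparison was not called without mouse 3, 4 or 5 (-0.78 to -0.66 log2 units, adjusted p = 0.0652 to 0.0799). None of the calls of the C1q chains, Lyz2, Cd68, Apoe, Gpnmb, Fcgr3 or Ctsb was lost with any 1 mouse left out. Within mice 1 and 2 alone, those of Lyz2, Gpnmb, Fcgr3 and Ctsb were kept. Cd68 was called there in neither lymphoma comparison (1.38 log2 units, adjusted p = 0.135, and 1.32, adjusted p = 0.0549). The C1q chains and Apoe were not called there against mice before transformation (2.06 to 2.71 log2 units, adjusted p = 0.0924 to 0.203). Of the 28 calls against controls 12 were kept, and Mpeg1 (0.31, adjusted p = 0.761) and Cybb (0.48, adjusted p = 0.599) were among those lost.

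Among markers of other cells, most stromal genes rose with the macrophage genes in lymphomas and most T cell genes fell. The part of other cells in the result was not tested. Of 9 T cell markers measured and tested, 8 fell in lymphomas against controls and 7 against mice before transformation, with their summed signals given above. Of all genes tested 22.7% and 18.3% fell in these comparisons and 17.4% and 16.0% rose. Before transformation 4.36% of all genes rose and 6.18% fell. Of 7 tested stromal markers 6 rose in lymphomas against controls, among them the matrix genes Bgn, by 3.40 ± 0.55 (at least 10.5-fold, adjusted p = 0.000206), and Col1a2, by 2.26 ± 0.37 (4.8-fold, adjusted p = 0.000224). The summed linear signal of 9 stromal genes was 903 to 1031 in controls, 1012 to 1939 before transformation and 1102 to 8572 in lymphomas, with lymphoma 8 the highest and lymphoma 1 the lowest tumour. The summed signal of the 3 C1q genes was 331 to 1487, 280 to 1540 and 2010 to 8724 in the same groups, with the same lymphoma highest. Granulocyte genes, which share the myeloid lineage, had their highest sums in controls 1, 2 and 5, while controls 3 and 4 lay within the range of the lymphomas. Their summed signal over 12 genes was 3832 to 10781 in controls, 2134 to 3220 before transformation and 2417 to 5484 in lymphomas. Of 11 tested granulocyte genes 5 fell before transformation, among them S100a9, which fell by 3.51 ± 0.56 log2 units (11.4-fold, adjusted p = 0.00149), and in lymphomas 4 rose and none fell against mice before transformation, while 1 rose and 5 fell against controls. Summed signals of 11 dendritic cell genes were 2158 to 2531 in controls, 1690 to 2615 before transformation and 2076 to 4439 in lymphomas. Of 8 tested, 3 rose and none fell in lymphomas against mice before transformation, and 1 rose and none fell against controls. Summed signals of 9 B cell genes were 1337 to 1694, 863 to 3149 and 830 to 5948 in the same groups. None of the 7 tested B cell genes was called in either lymphoma comparison.

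**Figure D4:**
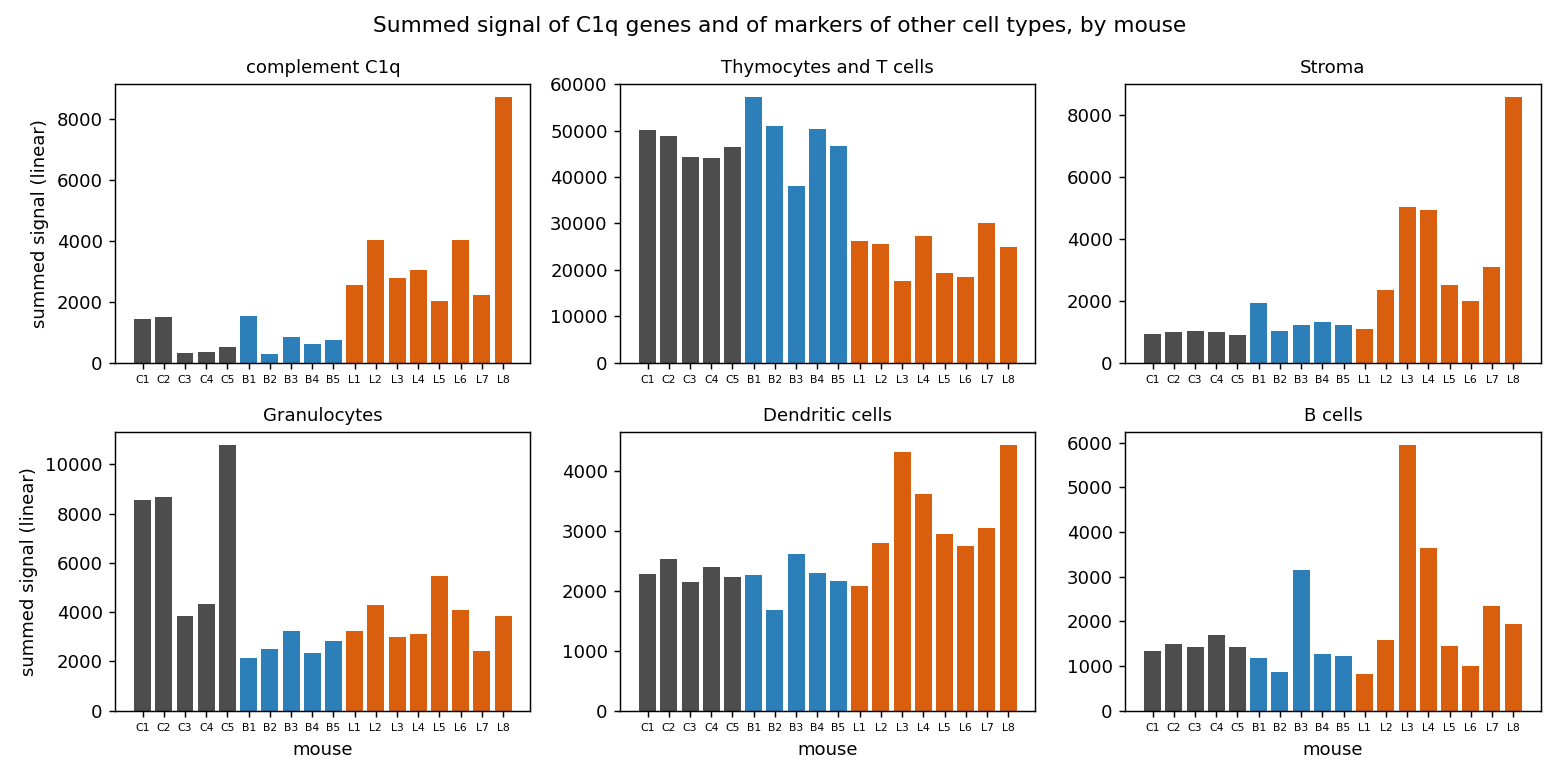
Summed linear signal by mouse of the C1q genes and of marker genes of other cell types (C control, B before transformation, L lymphoma). C1q sums are 2010 to 8724 in lymphomas and at most 1540 in the other mice, stromal sums reach 8572 in lymphoma 8, and T cell sums are lower in every lymphoma than in the other mice.

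Other genes of the macrophage were read from 5 lists drawn up by role, and no list was tested as a whole. Of all genes tested 4.36% rose and 6.18% fell before transformation, and 16.0% rose and 18.3% fell in lymphomas against those mice. These shares go with the counts of all 5 lists below. Of 16 tested lysosome genes 1 fell before transformation and 8 rose and 3 fell in lymphomas against those mice, with a median difference of 0.76 log2 units. The smallest adjusted p-values were those of Gusb, the glucuronidase of the lysosome, up by 1.75 ± 0.20 (3.37-fold, adjusted p = 2.02e-05), Ctsl, cathepsin L, down by 2.33 ± 0.29 (5.01-fold, adjusted p = 4.19e-05), Lamp2, a lysosome membrane protein, up by 1.70 ± 0.22 (3.24-fold, adjusted p = 5.86e-05), and Ctsh, cathepsin H, up by 2.20 ± 0.40 (4.59-fold, adjusted p = 0.000916). Lamp1, another lysosome membrane protein, did not pass, at 0.17 ± 0.14 (95% interval -0.13 to 0.47, adjusted p = 0.382).

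Of 16 partners in the uptake of dying cells, 1 rose and 4 fell before transformation, and 4 rose and 2 fell in lymphomas against those mice. Cd47, the surface protein that restrains engulfment, fell by 1.24 ± 0.11 (2.37-fold, adjusted p = 2.27e-05) before transformation and by a further 1.19 ± 0.20 (2.28-fold, adjusted p = 0.000508) in lymphomas. Mfge8, a bridge between dying cells and phagocytes, rose by 0.66 ± 0.15 (1.58-fold, adjusted p = 0.0121) and 1.0 ± 0.24 (2-fold, adjusted p = 0.0053) at the same steps. Gas6, the ligand of Mertk and Axl, did not pass, with -0.07 ± 0.30 (95% interval -0.70 to 0.57, adjusted p = 0.882) between lymphomas and mice before transformation.

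Of 13 tested growth factors and transcription factors of macrophages none was called before transformation, and 1 rose and 1 fell in lymphomas against those mice. Cebpb, a transcription factor of inflammatory macrophages, rose by 1.84 ± 0.22 (3.59-fold, adjusted p = 2.96e-05) and Runx1 fell by 0.84 ± 0.28 (1.79-fold, adjusted p = 0.0313). The ligand of the CSF1 receptor, Csf1, differed by 0.31 ± 0.14 (95% interval 0.01 to 0.61, adjusted p = 0.0977). Of 24 other macrophage and monocyte genes, 1 rose and 1 fell before transformation, Itgam and Itgb2, the 2 chains of the integrin Mac-1, by 3.73 ± 0.23 (13.3-fold, adjusted p = 1.05e-06) up and 0.60 ± 0.11 (1.51-fold, adjusted p = 0.00311) down. In lymphomas against those mice 6 of the 24 rose and 1 fell, with C5ar1, the receptor for complement C5a, up by 1.14 ± 0.17 (2.21-fold, adjusted p = 0.000185), Cd5l, a secreted macrophage protein, up by 2.37 ± 0.47 (at least 5.16-fold, adjusted p = 0.00158), Laptm5, a lysosome protein of blood cells, down by 0.90 ± 0.17 (1.87-fold, adjusted p = 0.000933), and Siglec1, which did not pass, at 0.16 ± 0.19 (95% interval -0.25 to 0.57, adjusted p = 0.543). Of 16 chemokines and secreted products none rose and 2 fell before transformation, while 6 rose in lymphomas against those mice. They included Saa3, an acute-phase protein, up by 3.40 ± 0.45 (10.5-fold, adjusted p = 7.39e-05), Chil3, a chitinase-like protein, up by 1.61 ± 0.30 (3.05-fold, adjusted p = 0.00108), Ccl6, up by 1.37 ± 0.28 (2.58-fold, adjusted p = 0.00186), and Arg1, arginase, up by 1.73 ± 0.43 (at least 3.31-fold, adjusted p = 0.0071). Chil3 had fallen by 1.55 ± 0.29 (2.93-fold, adjusted p = 0.0044) before transformation, and lymphomas differed from controls by 0.06 ± 0.35 (95% interval -0.70 to 0.81, adjusted p = 0.913). Il1b did not pass between lymphomas and mice before transformation, at -0.17 ± 0.17 (95% interval -0.54 to 0.20, adjusted p = 0.463). Against controls the lysosome list had 8 rises and 3 falls in lymphomas, the uptake partners 3 and 4, the growth and transcription factors 2 and 1, the other macrophage and monocyte genes 8 and 2, and the chemokines and products 5 and 2. Of all genes tested 17.4% rose and 22.7% fell in that comparison.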

How the data were processed

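Total RNA of 18 samples was hybridised to Affymetrix mouse arrays. The deposited values are linear intensities, 1 per probe set and array, for which the authors used dChip, as the series' design text says. Its version, model and scaling are not given in the sources used. Of 811818 deposited intensities 1.2% were blank and 606 negative, 605 of them on control 1. Blank values and values under the 20th percentile of all intensities (53.5) were set to it before log2, so a fold against a group mostly at this floor is a lower bound, written as "at least". Genes were named from GEO's platform annotation, in which 34958 of 45101 probe sets have 1 symbol, 932 several and 9160 none, and a gene was read by its probe set with the highest mean over all arrays. Genes above the 40th percentile (109) on at least 5 arrays were tested. Groups were compared in pairs with limma 3.58.1 in R 4.3.3 (lmFit, eBayes with intensity trend, two-sided, Benjamini-Hochberg over all genes tested), which was tested on simulated data. With 5 to 8 arrays a group, their number limits the precision. The labels number the samples within groups, and each sample was taken as a separate mouse. Why lymphoma 4 gave both female and male signals was not tested.

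The members and all lists were chosen with earlier results of these data known. Values by mouse are given for members called in at least 1 comparison, and for C1qa, C1qb, C1qc, Csf1r, Adgre1, Lyz2 and Cd68, and from each other list up to 4 called genes with the smallest adjusted p and 1 that was not called are named. Alternatives were other scalings, floors, filters, fits, probe sets and sets of mice, a block by mouse number, and leaving out each mouse. Leaving out lymphoma 8 with mouse 2 before transformation was chosen after seeing the data.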

Additional observations from a re-analysis of the deposited data

Results flagged for a closer look

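Within each group of 5 or 8 mice, the highest or lowest log2 signal of a member was set against its nearest neighbour, and 9 of 108 groups had a sample past Dixon's 95% critical value. Chance gives about 1 in 20 for a single group. The members were read in the same mice, so the count of 9 cannot be set against that rate. Lymphoma 8 was far above the other lymphomas for 5 members. It read 10.59 for Cd68, with the next lymphoma at 9.24, and 8.38 for Cd14, with the next at 7.26. It read 9.98 for Lgmn, with the next at 8.98, 9.44 for Axl, with the next at 7.89, and 9.70 for Slc11a1, with the next at 8.17. Mouse 3 before transformation read 6.56 for Fcgr3, where the other 4 were at the floor of 5.74, so that any value above the floor would have passed this criterion. Mouse 2 of that group read 6.14 for Mertk, with the next at 6.46. Among controls, control 5 read 7.31 for Cd14, with the next at 8.34, and control 3 read 9.01 for Lyz2, with the next at 9.71.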

How the results depend on the processing

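The counts of members called kept within 1.5 times their main value under other scalings, floors, filters, fits and probe sets. Within mice 1 and 2 alone 1 member was called before transformation against control, 8 in lymphomas against mice before transformation and 12 against controls, from 3, 23 and 28. All genes called there were 1068, 2571 and 3971, from 1478, 4816 and 5618. Within mice 3 and up alone 6 members were called before transformation, and 1271 of all genes. Fitting all 3 groups together called 818 genes before transformation, from 1478. Leaving out each mouse in turn gave 2 to 4, 19 to 28 and 24 to 29 members. Of all genes it gave 1149 to 1641, 3753 to 5184 and 4727 to 6094. Of 108 results for single members, 42 changed sign in at least 1 alternative, 2 of them among the 54 called. Counting only sign changes with a call on either side, there were 5: Trem2 (0.24) in lymphomas against mice before transformation and Mertk (-0.21) against controls within mice 1 and 2 alone, and, on second probe sets, Csf2ra (0.88) and Msr1 (0.68) against mice before transformation and Msr1 (0.67) against controls. The causes were not tested. Quantile normalization changed the split of all calls, 2244 higher and 2572 lower in lymphomas against mice before transformation, to 3176 and 2218, and 2434 and 3184 against controls to 3588 and 2555. Centring on the median gave 2680 and 1897, and 3062 and 2371. With mouse number as a replicate block 2, 22 and 26 members were called, and 1447, 4957 and 4928 of all genes. Same-numbered mice correlated by -0.14 to 0.38, 0.09 to 0.41 and -0.07 to 0.27, and 3, 3 and 2 of 10 mice correlated best with their own number, so the numbers were not taken as pairs. Levels at the floor have no order.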
